A study of Mus musculus with 16 samples.

Results

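The genes described here are 42 enzymes and regulators of the glutathione and antioxidant defence in mouse epididymal fat, the visceral fat pad beside the epididymis. They were taken by gene name from the deposited mRNA table, where all 42 were present among 27150 genes. They comprise 4 genes of glutathione synthesis and reduction (Gclc, Gclm, Gss, Gsr) and 6 glutathione peroxidases (Gpx1 to Gpx4, Gpx7, Gpx8). A further 16 are glutathione S-transferases and 8 belong to the thioredoxin and peroxiredoxin system. The last 8 are 4 superoxide dismutase and catalase genes and 4 of the NRF2 system (Nfe2l2, Keap1, Nqo1, Hmox1). Of the 42, 40 passed the filter on low counts and were tested among 17535 genes, while Gpx2 and Gsta2 did not pass.

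Glutathione is a cysteine-containing tripeptide made by glutamate-cysteine ligase (Gclc is its catalytic and Gclm its modifier subunit) and glutathione synthetase (Gss). Peroxidases oxidise it to remove peroxides, glutathione reductase (Gsr) returns it to the reduced form with NADPH, and the transferases attach it to reactive molecules such as the lipid aldehyde 4-hydroxynonenal. Peroxiredoxins remove peroxides with electrons from thioredoxin, and superoxide dismutases turn superoxide into hydrogen peroxide, which catalase breaks down. Many of these genes are known targets of the transcription factor NRF2 (Nfe2l2), which KEAP1 holds for degradation in unstressed cells and which binds the antioxidant response element. In fat tissue both the fat cells and the resident macrophages use these systems.

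Male C57BL/6J mice, 6 weeks old and of about 22 g when bought, were kept in 4 groups. One group had a normal diet. The others had a high-fat diet with 60% fat (HFD, given for 8 weeks before any treatment) alone, the same diet with metformin (an antidiabetic biguanide) or the same diet with resveratrol (a plant polyphenol), and each drug was given for 6 weeks. The labels give no dose or route, no genetic alteration and no feeding time for the normal diet. No treatment time is recorded for the group on HFD alone. Whether its time on the diet and age at sampling matched those of the drug groups is therefore not known. There were 4 libraries of total RNA per group. The resveratrol library 4 was left out, since its Crisp1, an epididymis gene, stood at 12131 CPM against at most 16.3 CPM in the others. The 15 libraries used are normal diet 1 to 4, HFD 1, 2, 3 and unmatched, metformin 1, 2, 4 and unmatched, and resveratrol 1 to 3, and values below follow this order. The 2 columns called unmatched carry a code found in no title and were placed by their code prefix, which gives the group only.

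Summed mRNA counts ranged from 13350585 to 20531032 over the 16 libraries. The titles and design text name epididymal fat, while other label text speaks of retina and of skeletal muscle. Summed CPM (a library's counts scaled to a common total) over 15 fat cell markers ran from 22720 to 43696 in the 15 libraries, against 7.97 to 14.2 for retina markers and 31.2 to 136 for muscle markers. None of the 15 fat cell markers changed in any comparison of HFD with normal diet or of a drug with HFD. Their sum was lowest in metformin 2, at 22720 CPM, against 33806 to 43599 in the other metformin libraries. Of the 20 macrophage markers, Lpl is also on the fat cell list and stood at 5409 to 11628 CPM. The other 19 summed to 1814 to 2939 CPM on the normal diet, to 5753, 6451 and 6592 in HFD 1 to 3 and to 2277 in HFD unmatched, which lay within the normal diet range. They summed to 1531 to 2130 CPM with metformin and to 1804 to 1966 with resveratrol. The libraries normal diet 2, metformin 2, 4 and unmatched and resveratrol 2 also held RNA of motile ciliated epithelium, with 579 to 1504 CPM over its markers, against 53.8 to 122 CPM in the other 10. Metformin 2 in addition held 3156 CPM of sperm-forming cell markers, against at most 112 in the other 14. Seminal vesicle RNA (4 Svs genes) came to 1073 CPM in normal diet 4, 245 in normal diet 2 and 38.4 in normal diet 1, against at most 4.53 in the other 12. Epididymis markers came to 26.5 to 64 CPM in the 4 metformin libraries and 39.3 in normal diet 2, against at most 7.50 in the other 10. In normal diet 2 this was mostly Adam7, at 36.3 CPM, with Crisp1 at 0. In the 4 metformin libraries Crisp1 was nearly even, at 15.2 to 16.3 CPM, and Ces5a lay at 3.72 to 6.75. Both stood far higher in the left-out resveratrol 4, at 12131 and 4202 CPM. Whether the reads in the metformin libraries came from their own tissue was not tested. Of the 9 tested markers of these tissues, 5 fell on the HFD (the 4 Svs genes and Ces5a) and 4 rose with metformin (Ces5a, Crisp1, Lcn5 and Rnase9). Ces5a was close to the limit of counting on both diets, at 0.15 to 0.343 CPM on the normal diet and 0 to 0.0496 on HFD. The sample codes of HFD 1 to 3 share a first number that HFD unmatched does not have, as those of normal diet 1 to 3 share one that normal diet 4 does not. Metformin 1 and metformin unmatched also share a first number, as do resveratrol 1 and resveratrol 2. The labels do not say what this number marks, so whether these libraries are independent of each other is not known. In bulk tissue, fewer cells of a type and less RNA per cell cannot be told apart. The part of these cells in the results below was not tested beyond the values given.

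Promoter windows of RefSeq (GRCm38.p6, 250 bases before to 50 after the start site) were on hand for 35 of the 42 genes. No window was on hand for Gclc, Gsr, Gsta4, Gstt2, Prdx6, Sod3 and Hmox1, so these were not searched. Sequence outside the windows was not searched for any gene. The windows were searched on both strands for the core of the antioxidant response element, TGACNNNGC. They were also searched for the AP-1 site TGACTCA, letters with which the core can overlap. The element core lay in the windows of 9 genes: Gclm, Gsta3, Gstm5, Mgst1, Nfe2l2, Prdx1, Sod1, Srxn1 and Txnrd1. It was present in 9 of the 44 windows of the members, against 12.4% of all 32851 windows of this length. The AP-1 letters lay in 5 of the 44 windows, those of Gstm5, Gstp1, Mgst2, Prdx1 and Srxn1, against 5.2% of all windows. Some members have more than 1 window. The 4 windows below are shown because each holds the element core and because the genes went opposite ways on the HFD, Gsta3 and Sod1 lower and Prdx1 and Srxn1 higher. The core is in capitals, written 5′ to 3′ along the gene's strand, and appears as its reverse complement where it lies on the other strand.
Gsta3: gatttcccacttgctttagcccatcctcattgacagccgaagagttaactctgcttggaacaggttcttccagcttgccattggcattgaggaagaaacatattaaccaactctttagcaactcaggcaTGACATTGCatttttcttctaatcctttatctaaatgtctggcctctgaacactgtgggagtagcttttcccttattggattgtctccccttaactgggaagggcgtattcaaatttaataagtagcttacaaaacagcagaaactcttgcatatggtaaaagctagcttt
Sod1: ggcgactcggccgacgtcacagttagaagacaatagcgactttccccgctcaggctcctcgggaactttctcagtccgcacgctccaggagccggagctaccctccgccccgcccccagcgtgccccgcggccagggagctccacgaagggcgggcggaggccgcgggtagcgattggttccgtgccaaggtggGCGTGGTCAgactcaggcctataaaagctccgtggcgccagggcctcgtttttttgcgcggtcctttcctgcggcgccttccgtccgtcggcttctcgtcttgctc
Prdx1: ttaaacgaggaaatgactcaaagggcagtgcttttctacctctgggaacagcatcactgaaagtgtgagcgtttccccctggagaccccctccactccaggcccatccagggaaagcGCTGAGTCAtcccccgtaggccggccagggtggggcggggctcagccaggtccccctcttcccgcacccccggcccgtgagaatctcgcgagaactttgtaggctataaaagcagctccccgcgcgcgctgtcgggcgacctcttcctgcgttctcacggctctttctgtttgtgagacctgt
Srxn1: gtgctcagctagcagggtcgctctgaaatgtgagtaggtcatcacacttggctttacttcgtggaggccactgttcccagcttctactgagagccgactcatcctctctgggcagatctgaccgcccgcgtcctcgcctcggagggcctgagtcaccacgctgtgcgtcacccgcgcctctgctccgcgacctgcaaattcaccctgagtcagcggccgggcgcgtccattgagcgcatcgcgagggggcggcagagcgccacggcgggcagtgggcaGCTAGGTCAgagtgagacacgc
In Gsta3 (chr1:21240335-21240634, plus strand) the core lies 121 to 113 bases before the start site. In Sod1 (chr16:90220512-90220811, plus strand) it lies 56 to 48 bases before it, on the opposite strand. In Prdx1 (chr4:116685349-116685648, plus strand) it lies 133 to 125 bases before the start, on the opposite strand, and the AP-1 letters overlap it there and stand again, apart from it, at 237 to 231 bases before the start. Srxn1 (chr2:152105274-152105573, plus strand) has it 28 to 36 bases after the start, with AP-1 letters at 102 to 96 and at 45 to 39 bases before the start. A match of letters is a description and not a measured binding site. Of the 9 genes with the core, Prdx1 and Srxn1 rose on the HFD, Gsta3 and Sod1 fell, and the other 5 did not pass the threshold. In that comparison 47.5% of all tested members and 23.1% of all tested genes changed.

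Levels of different genes are compared per kilobase of transcript, as CPM per kb (mean ± SD over the 4 normal diet libraries). Mgst1, a membrane-bound transferase and peroxidase, was highest at 716 ± 126, followed by Sod1 at 351 ± 56.3, Cat at 312 ± 86.5, Gpx3 at 276 ± 10.4 and Gpx1 at 275 ± 205. Sod1 and Cat lay within their spread of each other, as did Cat, Gpx3 and Gpx1. Gstm1 (185 ± 34.6), Gpx4 (159 ± 30.7), Mgst3 (145 ± 24.4), Prdx1 (117 ± 23.5) and Gstz1 (115 ± 17.7) came next. A middle range held Gstp1 at 105, Prdx6 at 102, Txn1 at 93.2, Sod3 at 93.1, Prdx3 at 84, Prdx5 at 82.3, Gstm2 at 77.3 and Prdx2 at 74.7 CPM per kb. Synthesis and regulatory genes stood low, with Nfe2l2 at 44.1, Keap1 at 17.7, Gsr at 17, Gclc at 15.4, and Gclm and Gss both at 11.2 CPM per kb. Nqo1, the quinone reductase often used as a readout of NRF2, was the lowest of the tested members at 5.04 ± 0.906 CPM per kb. Gsta2 and Gpx2, the intestinal-type peroxidase, were at 0.0629 and 0.0294 CPM per kb, close to the limit of counting.

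**Figure D1:**
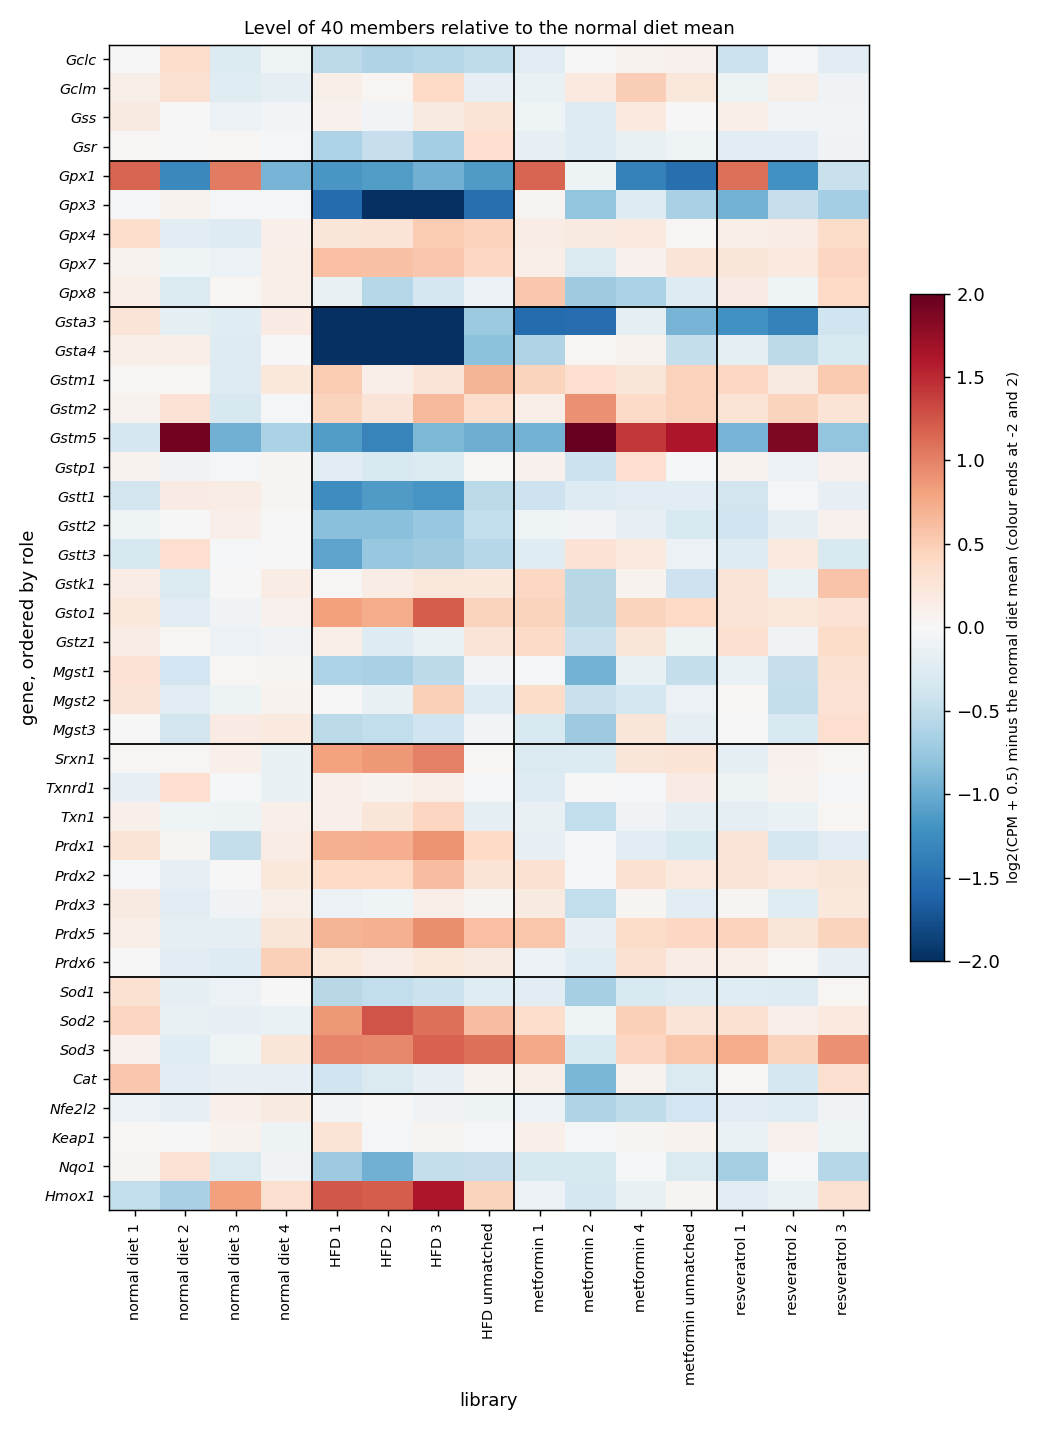
Level of the 40 tested members (vertical axis, grouped by role) in each of the 15 libraries (horizontal axis), as log2(CPM + 0.5) minus the normal diet mean, with the colour scale ending at -2 and 2. The HFD libraries are blue for Gpx3, Gsta3, Gsta4 and Gstt1 to Gstt3 and red for Prdx1, Sod2 and Sod3, HFD unmatched is paler than HFD 1 to 3 in several of them, and Gstm5 is red in the 5 libraries rich in ciliated epithelium.

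On the HFD, 19 of the 40 tested members changed against the normal diet, 10 higher and 9 lower, which is 47.5% of them, while 23.1% of all tested genes changed. By direction, the background was 13.8% of all genes higher and 9.34% lower. The falls were led by the transferases Gsta4 and Gsta3 and the secreted peroxidase Gpx3, each 3.81- to 3.93-fold lower. The rises were led by Hmox1, Sod3 and Sod2, 1.95- to 2.1-fold higher. The median log2 fold change of the 40 members was 0.02, beside -0.04 over all genes, and the median size without sign was 0.43 beside 0.36. In 16 members the HFD and normal diet libraries did not overlap, or 40% of them, beside 27.8% of all genes. The count was 5 of 40 when resveratrol 4 was kept in the fit and 15 to 20 when any 1 of the 15 libraries was left out.

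Metformin on the HFD gave 14 of 40 members changed against HFD alone, 7 higher and 7 lower. This is 35% of them, beside 13.9% of all genes (6.09% higher and 7.84% lower). Gpx3, Gsta4, Gstm5, Gclc and the theta transferases Gstt1 to Gstt3 rose, and Hmox1, Prdx1, Srxn1, Sod2, Sod3, Gpx7 and Nfe2l2 fell. In 15 members the groups did not overlap, beside 17% of all genes. The count depended on few libraries: it was 3, 4 and 3 without HFD 1, 2 or 3, and 8 without metformin 2. It was 0 when a score of ciliated epithelium markers entered the fit, 0 without the 5 libraries rich in that epithelium, which leaves metformin 1 alone in its group, and 0 when resveratrol 4 was kept.

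Resveratrol on the HFD gave 6 of 40 members changed against HFD alone, beside 4.17% of all genes (1.09% higher and 3.09% lower). Gpx3, Gsta4, Gstt1 and Gstt2 rose, and Prdx1 and Sod2 fell. In 15 members the groups did not overlap, beside 21.5% of all genes. The count was 0 without any 1 of HFD 1, 2 and 3 and resveratrol 1, 2 and 3, and 11 without HFD unmatched. It was 3 when resveratrol 4 was kept and 0 when only the 2 groups were fitted. Both drug comparisons use the same 4 HFD libraries, so their values are given side by side below and are not independent of each other.

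Against the normal diet, no member passed the threshold in either drug group, and none did between the drugs. For metformin against normal diet, where 1.71% of all genes changed, 4 members had an unadjusted p under 0.05 in edgeR and DESeq2 called 1, Nfe2l2. In 3 members the 2 groups did not overlap, beside 9.3% of all genes. For resveratrol against normal diet, with 0.148% of all genes changed, 5 members had an unadjusted p under 0.05 and DESeq2 called 1, Sod3. The groups did not overlap in 7 members, beside 12.6% of all genes. Between the drugs, with 0.0114% of all genes changed, the numbers were 0 and 0, and no member was without overlap, beside 5.13% of all genes. A value short of the threshold does not show that the groups were alike: Gsta3 stood at 48.2 ± 23.2 CPM with metformin and 48.6 ± 18.9 with resveratrol against 93.5 ± 16.2 on the normal diet, with log2 fold changes of -0.95 (SE 0.46, adjusted p = 0.292) and -0.94 (SE 0.51, adjusted p = 0.593).

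**Figure D2:**
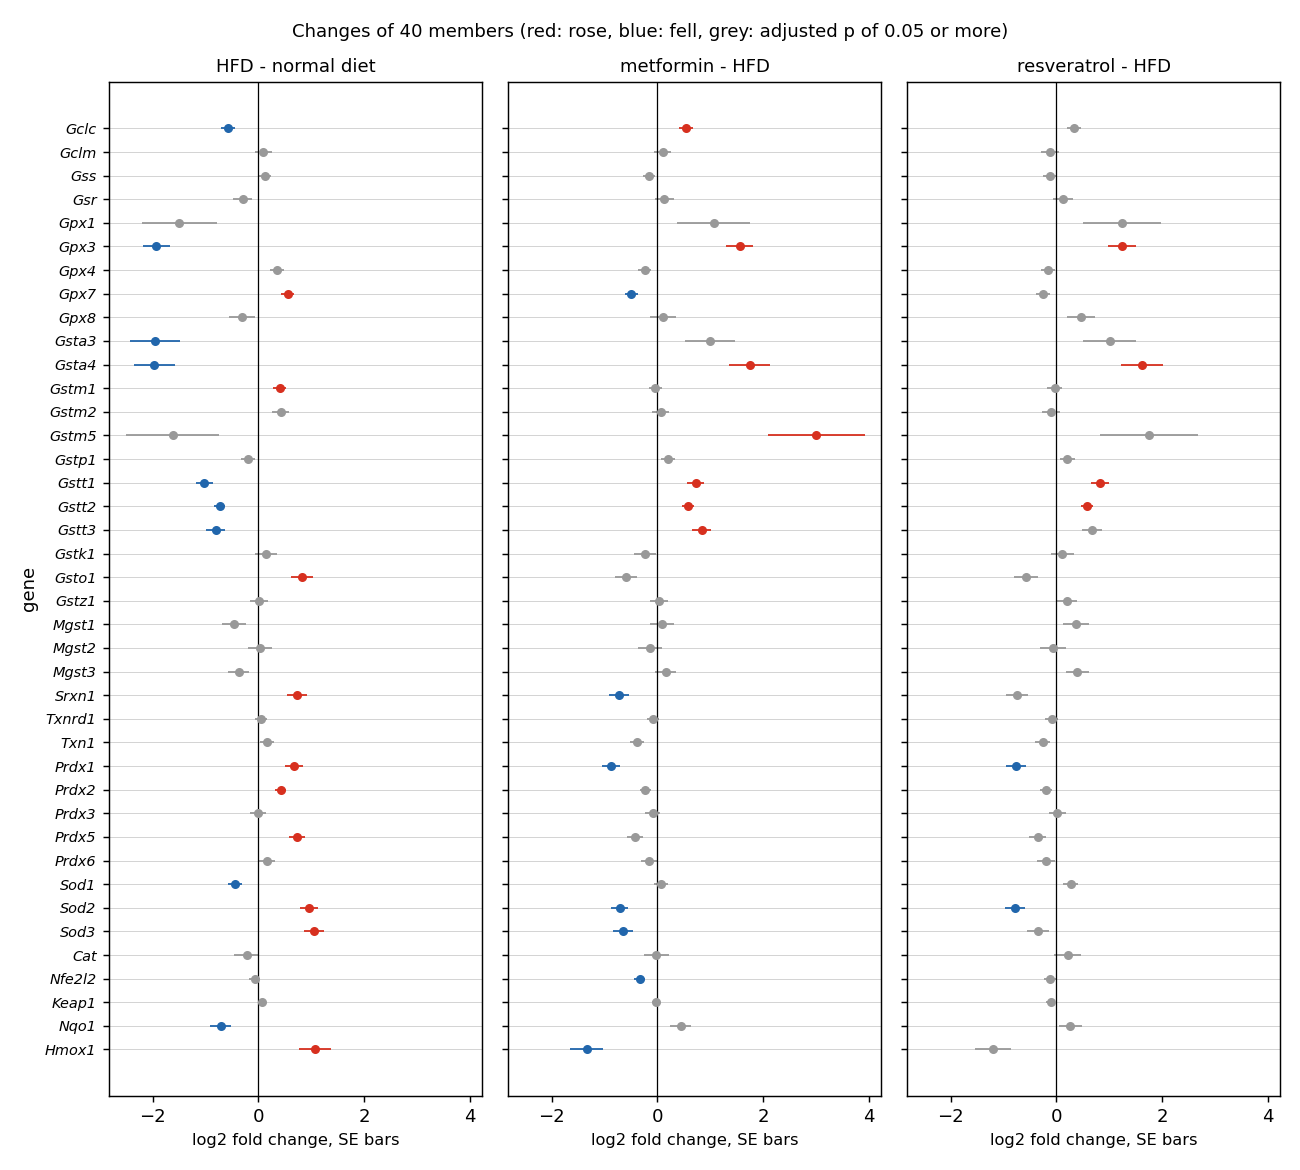
Log2 fold change (horizontal axis, bars are the standard error) of the 40 tested members (vertical axis) in HFD against normal diet, metformin against HFD and resveratrol against HFD, red where the gene rose, blue where it fell and grey where the adjusted p was 0.05 or more. The counts are 10 red and 9 blue, 7 and 7, and 4 and 2 from left to right.

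Glutathione synthesis and reduction held 1 change on the HFD in 4 genes, beside 23.1% of all genes. Gclc (chromosome 9, 77754535 to 77794485 of GRCm38), the subunit that carries the rate-limiting step, stood at 50.1, 64, 41.5 and 46.9 CPM on the normal diet and at 34.7, 32.7, 33.6 and 35 on HFD. All 4 HFD libraries lay below the lowest normal diet library. The fall was 1.49-fold (log2 fold change -0.57, SE 0.13, adjusted p = 0.00689) and held without any 1 library. With metformin the values were 42.9, 49.5, 52.8 and 53.1 CPM, all above the HFD, and Gclc rose by a log2 fold change of 0.54 (SE 0.13, adjusted p = 0.0201). That rise missed the threshold without HFD 1, 2 or 3 (adjusted p of at most 0.0691). With resveratrol they were 37, 49.2 and 42.7 CPM, also clear of the HFD, but the difference of 0.34 (SE 0.14) had an adjusted p of 0.171.

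The other 3 genes of synthesis and reduction passed the threshold in no comparison. The modifier subunit gene Gclm lay at 38.9 to 57 CPM on the normal diet and 41.2 to 60.4 on HFD, and Gss at 17.9 to 22.2 and 18.8 to 23.8. Gsr was even on the normal diet, at 43 to 45.1 CPM, and split on HFD, with 28.6, 32 and 27.5 CPM in HFD 1 to 3 and 56 in HFD unmatched. Its log2 fold change of -0.30 (SE 0.18) thus averages 3 libraries below and 1 above the normal diet.

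Among the glutathione peroxidases 1 fell and 1 rose on the HFD, beside 9.34% and 13.8% of all genes. Gpx3 (chromosome 11, 54902772 to 54910377), the secreted selenoprotein found in plasma and made in large amounts by fat and kidney, stood at 415, 445, 418 and 419 CPM on the normal diet and at 146, 75.7, 74.4 and 149 on HFD. The fall was 3.81-fold (log2 fold change -1.93, SE 0.25, adjusted p = 5.13e-04), and no other member had a smaller adjusted p in that comparison. With metformin Gpx3 was at 440, 246, 354 and 271 CPM and with resveratrol at 220, 307 and 263. Every drug library lay above every HFD library, and Gpx3 rose by 1.56 on the log2 scale with metformin (SE 0.25, adjusted p = 0.012) and by 1.24 with resveratrol (SE 0.26, adjusted p = 0.036). Resveratrol libraries were all below the normal diet, with a log2 fold change of -0.69 (SE 0.27, adjusted p = 0.395). Without resveratrol 3 the adjusted p against HFD was 0.135.

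Gpx7, a peroxidase of the endoplasmic reticulum without selenium, lay at 9.33 to 11.2 CPM on the normal diet and at 13.7 to 15.6 on HFD and rose (0.55, SE 0.12, adjusted p = 0.00714). With metformin it lay at 8.22 to 12.2 CPM and fell against HFD (-0.50, SE 0.12, adjusted p = 0.0244, at most 0.0728 without 1 library), and with resveratrol at 11.7 to 13.9 (-0.25, adjusted p = 0.282). Its neighbour in that compartment, Gpx8, lay at 14.1 to 19.1 on the normal diet and 11.5 to 16.1 on HFD and did not pass the threshold. Gpx4, the selenoprotein that reduces lipid peroxides in membranes and guards against ferroptosis, stood at 184, 124, 121 and 155 CPM on the normal diet and 171, 174, 204 and 198 on HFD. The groups overlapped through normal diet 1, and the difference of 0.35 (SE 0.12) had an adjusted p of 0.0569, while DESeq2 called it. Gpx4 was at 160, 163, 164 and 147 CPM with metformin (-0.24, SE 0.12, adjusted p = 0.193) and at 158, 160 and 186 with resveratrol (-0.15, SE 0.13, adjusted p = 0.529).

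Gpx1, the ubiquitous cytosolic peroxidase and a known abundant enzyme of red cells, split every group but the HFD. It stood at 497, 90.2, 457 and 116 CPM on the normal diet, at 97.9, 101, 113 and 100 on HFD, at 494, 206, 86.5 and 77.2 with metformin and at 477, 95.2 and 162 with resveratrol. Libraries of the same group thus differed more than group means did, and the log2 fold changes of -1.49, 1.07 and 1.25 had adjusted p-values of 0.139, 0.298 and 0.338. In every library 1 of its 4 transcripts in the table held 90.9% to 96.1% of its counts. The summed CPM of 9 red blood cell markers in the same order was 4171, 2746, 6222 and 2949, then 3176, 1205, 1735 and 3234, then 4356, 1424, 2197 and 1909, then 6026, 2041 and 4766. The 4 libraries with Gpx1 above 450 CPM were 4 of the 5 with red cell sums above 4000, and resveratrol 3, with 4766, had 162 CPM. The part of red cells in the Gpx1 values was not tested.

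**Figure D3:**
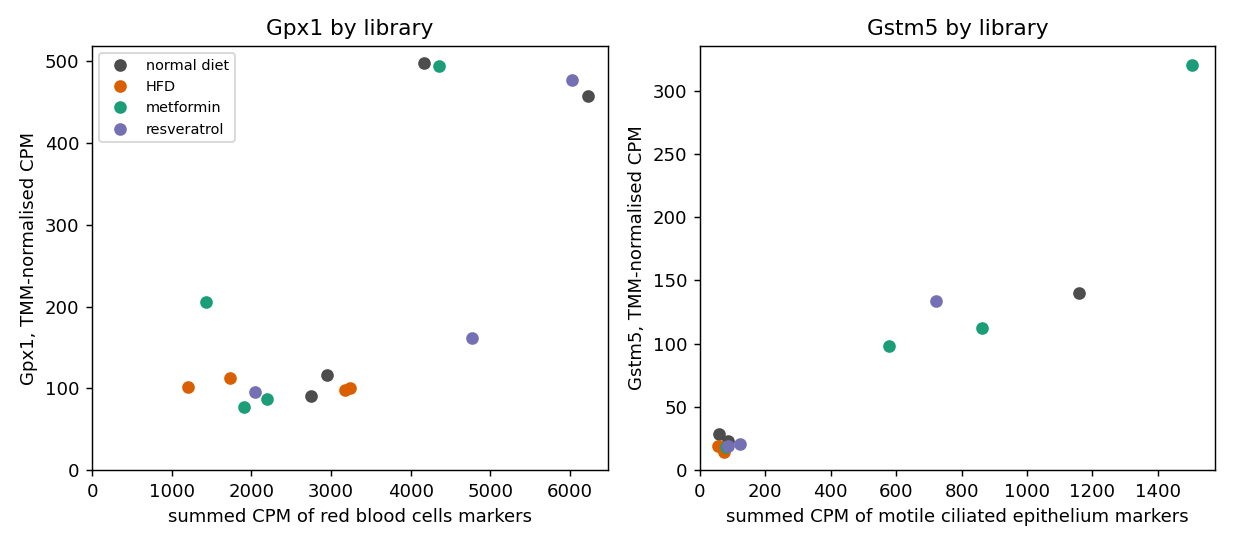
Left: Gpx1 (CPM) against the summed CPM of red blood cell markers, 1 point per library, coloured by group. Right: Gstm5 (CPM) against the summed CPM of motile ciliated epithelium markers, where the 5 libraries above 500 CPM of markers hold 98.5 to 320 CPM of Gstm5 and the other 10 at most 28.7.

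Of 15 tested transferases, 5 fell and 2 rose on the HFD, and the falls were in the alpha and theta classes. Over all genes 9.34% fell and 13.8% rose. The median log2 fold change of the 15 was -0.38, beside -0.04 for all genes. Gsta4 (chromosome 9, 78191947 to 78209349), the alpha-class enzyme known for conjugating 4-hydroxynonenal, stood at 21.3, 21.6, 16.4 and 19.7 CPM on the normal diet and at 3.66, 3.08, 2.51 and 10.9 on HFD. HFD unmatched lay between the other 3 HFD libraries and the normal diet, without overlap. The fall was 3.93-fold (log2 fold change -1.97, SE 0.39, adjusted p = 0.0039), and reached -2.69 without HFD unmatched. Gsta4 was at 12.8, 20.2, 20.6 and 13.9 CPM with metformin and at 17.1, 13.6 and 15.8 with resveratrol, all above the HFD. It rose by 1.75 with metformin (SE 0.38, adjusted p = 0.0168) and by 1.62 with resveratrol (SE 0.40, adjusted p = 0.0434). Leaving out HFD 1, 2 or 3 ended the metformin call (adjusted p of at most 0.0584), and leaving out any of 12 libraries ended the resveratrol call (at most 0.143).

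Gsta3 (chromosome 1, 21240589 to 21265661), an alpha-class enzyme also known for steroid isomerisation and the first promoter shown, stood at 111, 81.1, 78.5 and 103 CPM on the normal diet. It was at 13.5, 13.1 and 15.5 in HFD 1 to 3 and at 54.9 in HFD unmatched. It fell 3.87-fold (log2 fold change -1.95, SE 0.48, adjusted p = 0.0112). With metformin it was at 31.6, 31.7, 81 and 48.5 CPM and with resveratrol at 39.5, 36.1 and 70.4. These overlap the HFD through HFD unmatched only, and the differences of 1.00 (SE 0.47, adjusted p = 0.146) and 1.01 (SE 0.50, adjusted p = 0.25) did not pass. Gsta2, a close paralogue, was at 0 to 1.76 CPM and was not tested.

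The 3 theta-class genes among the members lie on chromosome 10, between 75774115 and 75837424, and all fell on the HFD. Gstt4, another theta-class gene, is not a member and did not pass the filter on low counts. Gstt1, which acts on small halogenated compounds, stood at 44.6, 65, 64.4 and 60.2 CPM on the normal diet and at 24.1, 26, 25.3 and 39.8 on HFD (log2 fold change -1.02, SE 0.16, adjusted p = 0.00125). Gstt2 stood at 55.5, 58.5, 63.1 and 59.2 CPM and at 32.9, 32.8, 34.7 and 41.7 (-0.73, SE 0.11, adjusted p = 8.41e-04). Gstt3 stood at 14.9, 23.5, 18.3 and 18.7 CPM and at 8.68, 10.8, 11.1 and 12.4 (-0.81, SE 0.18, adjusted p = 0.00652). No HFD library reached the normal diet range for any of the 3, and each call held without any 1 library.

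In the metformin libraries the theta genes lay above every HFD library. Gstt1 was at 43.2, 48.2, 49.3 and 49.7 CPM (0.73, SE 0.16, adjusted p = 0.0175), Gstt2 at 55.6, 56.9, 52.6 and 47.9 (0.58, SE 0.11, adjusted p = 0.012) and Gstt3 at 15.7, 22.8, 21.4 and 17.1 (0.84, SE 0.18, adjusted p = 0.0147). Of these, the Gstt2 call held without any 1 library, while Gstt1 reached 0.0675 and Gstt3 0.0515 without 1 HFD library. With resveratrol Gstt1 was at 44.8, 56.7 and 51.7 CPM (0.83, SE 0.17, adjusted p = 0.036) and Gstt2 at 44.5, 52.1 and 62.4 (0.58, SE 0.12, adjusted p = 0.036). Gstt3, at 15.5, 21.3 and 14.9 CPM, was clear of the HFD but had an adjusted p of 0.0593 (0.68, SE 0.19). Both resveratrol calls reached 0.135 without resveratrol 3.

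**Figure D4:**
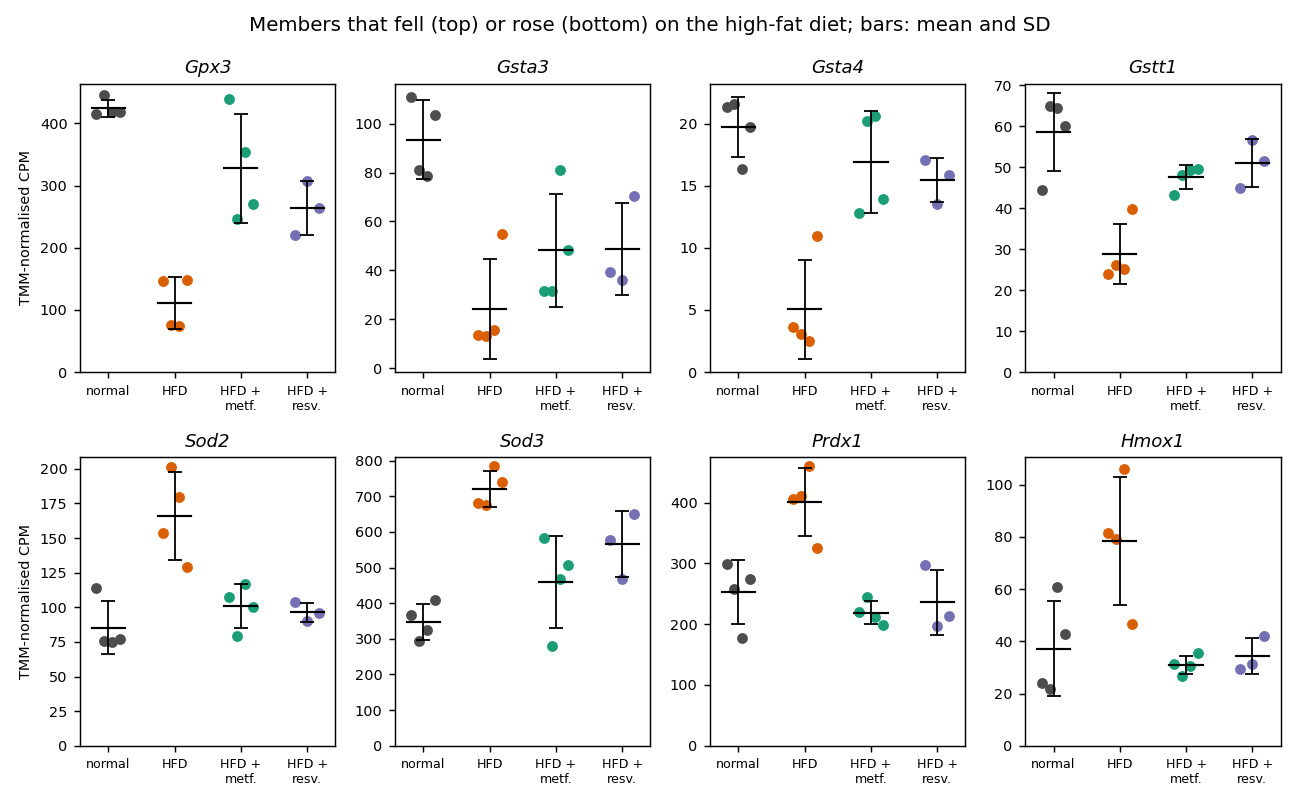
TMM-normalised CPM (vertical axis from about 0) per library in the 4 groups (horizontal axis), with the mean and SD, for 4 members that fell on the HFD (top: Gpx3, Gsta3, Gsta4, Gstt1) and 4 that rose (bottom: Sod2, Sod3, Prdx1, Hmox1). One HFD point, HFD unmatched, lies apart from the other 3 for Gsta3, Gsta4, Gstt1 and Hmox1, at 54.9, 10.9, 39.8 and 46.5 CPM.

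Gsto1, the omega-class enzyme that reduces dehydroascorbate and methylated arsenic, went the other way. It stood at 50.4, 36.8, 41.1 and 46.1 CPM on the normal diet and at 77.1, 73, 100 and 59.1 on HFD, and rose 1.78-fold (0.83, SE 0.21, adjusted p = 0.0127). It was at 59.3, 29.4, 59.1 and 57.4 CPM with metformin (-0.59, SE 0.21, adjusted p = 0.0667) and at 51.7, 50.9 and 52.9 with resveratrol (-0.58, SE 0.23, adjusted p = 0.159). Gstm1, a mu-class enzyme, lay at 172 to 238 CPM on the normal diet and at 226 to 332 on HFD and rose (0.40, SE 0.13, adjusted p = 0.0414). This call was lost in 11 of 15 fits that left out 1 library, with an adjusted p of 0.113 without HFD unmatched. Its paralogue Gstm2 lay at 55.2 to 84.5 and 83.4 to 109 CPM (0.42, adjusted p = 0.0762). Mu-class genes are close copies, and reads shared between them could have been split in counting.

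Gstm5, a mu-class enzyme known from testis and brain, differed widely between libraries of the same group, except on the HFD. It stood at 28.7, 140, 18.6 and 23.4 CPM on the normal diet, at 16.6, 14.1, 19.4 and 18.3 on HFD, at 18.7, 320, 98.5 and 112 with metformin and at 18.9, 134 and 20.9 with resveratrol. The 5 high values belong to the 5 libraries rich in ciliated epithelium, whose marker sums were 1160 CPM in normal diet 2, 1504, 579 and 863 in metformin 2, 4 and unmatched, and 722 in resveratrol 2. Against HFD, Gstm5 rose with metformin (3.01, SE 0.92, adjusted p = 0.0467) and did not pass with resveratrol (1.76, SE 0.93, adjusted p = 0.279). Its metformin call was lost in 12 of 15 fits that left out 1 library, with an adjusted p of 0.128 without metformin 2. That library also held 3156 CPM of sperm-forming cell markers. No HFD library was rich in ciliated epithelium, so group and these other cells cannot be fully told apart. The part of such cells in the Gstm5 values was not tested.

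The remaining 7 tested transferases passed the threshold in no comparison. They are Gstp1, which also binds signalling kinases, at 63.6 to 82.8 CPM over the normal diet and HFD libraries, the mitochondrial and peroxisomal Gstk1 at 15.9 to 22.9, and Gstz1, an enzyme of tyrosine breakdown, at 129 to 185. The membrane-bound Mgst1 lay at 504 to 802 CPM on the normal diet and at 417 to 630 on HFD (-0.46, SE 0.23, adjusted p = 0.156). Mgst2, which can make leukotriene C4, lay at 14.5 to 24.4 CPM over these 8 libraries, and Mgst3 at 121 to 180 and 108 to 151 (-0.38, SE 0.20, adjusted p = 0.194). Gstm2 is the seventh.

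The thioredoxin and peroxiredoxin system held 4 rises and no fall among 8 genes on the HFD, with a median log2 fold change of 0.29. Over all genes 13.8% rose. Prdx1 (chromosome 4, 116685544 to 116700822), the abundant cytosolic peroxiredoxin whose promoter is shown above, stood at 299, 257, 177 and 275 CPM on the normal diet and at 406, 410, 460 and 326 on HFD. It rose 1.59-fold (0.67, SE 0.17, adjusted p = 0.0135). With metformin it was at 221, 244, 212 and 199 CPM and with resveratrol at 297, 197 and 214, in both cases below every HFD library. It fell by 0.87 on the log2 scale with metformin (SE 0.17, adjusted p = 0.0123), which held without any 1 library. With resveratrol it fell by 0.76 (SE 0.19, adjusted p = 0.0418), with an adjusted p of 0.172 without resveratrol 3.

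Prdx5, found in mitochondria, peroxisomes and cytosol, stood at 101, 80.6, 81 and 109 CPM on the normal diet and at 148, 150, 177 and 139 on HFD (0.73, SE 0.15, adjusted p = 0.00482). It was at 136, 81.8, 118 and 122 CPM with metformin (-0.43, SE 0.15, adjusted p = 0.0656) and at 127, 109 and 125 with resveratrol (-0.35, SE 0.16, adjusted p = 0.219). Both drug groups lay below the HFD without overlap, yet neither passed. Prdx2, a cytosolic enzyme also abundant in red cells, rose on the HFD from 86.1 to 113 CPM to 117 to 149 (0.42, SE 0.10, adjusted p = 0.0102). Prdx3 of mitochondria (105 to 140 CPM on the normal diet, 113 to 136 on HFD) and Prdx6, which uses glutathione (163 to 271 and 216 to 229), did not pass.

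Srxn1, sulfiredoxin, which restores over-oxidised peroxiredoxins and is a classic NRF2 target, stood at 33.4, 33.4, 35.1 and 29.7 CPM on the normal diet and at 57.9, 60.5, 66.5 and 33.8 on HFD. HFD 1 to 3 were high, and HFD unmatched lay within the normal diet range. Srxn1 rose on the HFD (0.73, SE 0.19, adjusted p = 0.0154, and 0.0521 without HFD 3). It was at 26.8, 27.2, 38.8 and 40 CPM with metformin, where it fell against HFD (-0.72, SE 0.19, adjusted p = 0.032), a call lost without HFD 1, 2 or 3 or metformin 2 (at most 0.104). With resveratrol it was at 29, 34.8 and 33.7 CPM (-0.75, SE 0.21, adjusted p = 0.0607). The electron carriers themselves did not pass: Txnrd1, the cytosolic thioredoxin reductase, lay at 109 to 153 CPM on the normal diet and 118 to 134 on HFD. Txn1, thioredoxin, lay at 90.7 to 105 and 85.7 to 132 CPM, and at 69.7 to 93 with metformin (-0.39 against HFD, SE 0.13, adjusted p = 0.0563).

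The superoxide dismutases moved apart on the HFD. Sod2 (chromosome 17, 13007839 to 13018119), the manganese enzyme of mitochondria, stood at 114, 75.6, 75.3 and 76.9 CPM on the normal diet and at 154, 202, 180 and 129 on HFD. It rose 1.95-fold (0.96, SE 0.17, adjusted p = 0.00229). With metformin it was at 108, 79.4, 117 and 100 CPM and with resveratrol at 104, 89.8 and 95.8, all below the HFD. It fell by 0.72 with metformin (SE 0.17, adjusted p = 0.0211, at most 0.0682 without 1 library) and by 0.78 with resveratrol (SE 0.19, adjusted p = 0.0386, at most 0.140 without 1 library).

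Sod3 (chromosome 5, 52363791 to 52371418), the extracellular copper-zinc enzyme, stood at 368, 293, 324 and 408 CPM on the normal diet and at 681, 676, 784 and 740 on HFD. This 2.07-fold rise (1.05, SE 0.19, adjusted p = 0.00284) held without any 1 library. With metformin Sod3 was at 583, 279, 468 and 508 CPM and fell against HFD (-0.65, SE 0.19, adjusted p = 0.0432), a call lost in 11 of 15 fits that left out 1 library (adjusted p = 0.118 without HFD 3). With resveratrol it was at 578, 468 and 651 CPM, below the HFD (-0.35, SE 0.21, adjusted p = 0.339) and above the normal diet (0.70, SE 0.20, adjusted p = 0.225). Metformin 2 was the lowest of all 15 libraries for Sod3.

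Sod1, the cytosolic copper-zinc enzyme with the second promoter shown, fell. It stood at 278, 196, 207 and 225 CPM on the normal diet and at 153, 160, 166 and 190 on HFD (-0.44, SE 0.13, adjusted p = 0.0288). This fall was lost without HFD 1, 2 or 3 or normal diet 1, with an adjusted p of at most 0.0838. It was at 194, 141, 182 and 187 CPM with metformin (0.07, SE 0.13, adjusted p = 0.724) and at 189, 187 and 231 with resveratrol (0.27, SE 0.14, adjusted p = 0.269). Cat, the peroxisomal catalase, stood at 1152, 682, 712 and 710 CPM on the normal diet and at 601, 652, 705 and 837 on HFD (-0.22, SE 0.24, adjusted p = 0.528). It was at 857, 420, 833 and 651 CPM with metformin (-0.02, SE 0.24, adjusted p = 0.969) and at 810, 625 and 992 with resveratrol (0.21, SE 0.26, adjusted p = 0.667). Its groups overlapped in every comparison.

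The mRNA of NRF2 itself was even across the diets. Nfe2l2 stood at 91.9, 89, 108 and 113 CPM on the normal diet and at 96.3, 99.3, 95.2 and 93.1 on HFD (-0.07, SE 0.10, adjusted p = 0.674). With metformin it was at 91.7, 65.4, 70.5 and 76.7 CPM and fell just past the threshold against HFD (-0.34, SE 0.10, adjusted p = 0.0495), a call lost in 12 of 15 fits that left out 1 library (adjusted p = 0.116 without metformin 2). Against the normal diet the same libraries gave -0.40 (SE 0.10, adjusted p = 0.0699). With resveratrol Nfe2l2 was at 86.1, 84.8 and 95.5 CPM (-0.11, SE 0.11, adjusted p = 0.591). Its inhibitor Keap1 stood at 54.8, 53.6, 56.4 and 50.1 CPM on the normal diet, 65, 52.8, 55.5 and 52.5 on HFD, 57.5, 52.5, 55.8 and 56.1 with metformin and 49.1, 57.2 and 50.8 with resveratrol. Its log2 fold changes of 0.07, -0.03 and -0.11 (SE 0.08 to 0.09) had adjusted p-values of 0.541, 0.851 and 0.479. Activity of NRF2 is set largely by the stability of the protein, which these data do not measure.

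Nqo1 and Hmox1, the classic targets grouped with NRF2 here, both changed on the HFD, in opposite directions. Nqo1 stood at 8.08, 9.62, 6.28 and 7.34 CPM on the normal diet and at 4.47, 3.74, 5.43 and 5.49 on HFD and fell (-0.71, SE 0.20, adjusted p = 0.021). That call was lost without HFD 1, HFD 2 or normal diet 2, with an adjusted p of at most 0.0698. It was at 6.12, 6.11, 7.5 and 6.23 CPM with metformin, above every HFD library (0.44, SE 0.20, adjusted p = 0.132), and at 4.72, 7.51 and 5.04 with resveratrol (0.27, SE 0.21, adjusted p = 0.487).

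Hmox1 (chromosome 8, 75093621 to 75100589), the heme-degrading oxygenase that macrophages are known to induce, stood at 23.9, 21.6, 60.6 and 42.8 CPM on the normal diet and at 81.5, 79.3, 106 and 46.5 on HFD. Normal diet 3 lay above HFD unmatched, so the groups overlapped, but Hmox1 rose (1.07, SE 0.31, adjusted p = 0.0253). The call was lost without HFD 1, 2 or 3 or normal diet 1 or 2 (adjusted p of at most 0.0778). With metformin it was at 31.3, 26.7, 30.7 and 35.3 CPM, below every HFD library, and fell by 1.34 (SE 0.31, adjusted p = 0.0206, at most 0.0685 without 1 library). With resveratrol it was at 29.4, 31.1 and 42.1 CPM, also below every HFD library, with a difference of -1.20 (SE 0.34, adjusted p = 0.0661). Of the 20 macrophage markers, 12 rose on the HFD and none fell, 15 fell with metformin and 10 with resveratrol, and none rose. Over all genes 13.8% rose on the HFD, 7.84% fell with metformin and 3.09% fell with resveratrol. Adgre1, Cd68, Trem2 and Gpnmb were among those that changed in each of the 3 comparisons. Other markers did not follow: Cd163 stood at 200, 144, 201 and 239 CPM on the normal diet and at 104, 104, 84.2 and 157 on HFD. Mertk lay at 90.8 to 131 and 78.3 to 90.6 CPM. Neither passed the threshold. HFD unmatched, with 2277 CPM over the 19 macrophage markers outside the fat cell list against 5753 to 6592 in HFD 1 to 3, was the HFD library nearest the normal diet mean (by log2 CPM) for 17 of the 19 members called on the HFD. The exceptions were Gstm1, for which it was the farthest, and Sod3, for which HFD 2 was nearer. The same count was not made over all called genes, so whether this is particular to the members is not known. HFD unmatched also stood apart for mesothelial markers, at 701 CPM against 128 to 232 in HFD 1 to 3 (normal diet 452 to 581). For fibroblast markers it lay at 4849 against 8426 to 8518 (normal diet 3548 to 7129). The part of these cells in the members' values was not tested.

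Superoxide-producing enzymes, the supply side of this chemistry, were read from a list of 13 genes, of which 11 were tested. On the HFD 8 rose and none fell, with a median log2 fold change of 1.14 beside -0.04 for all genes. Over all genes 23.1% changed on the HFD (13.8% higher and 9.34% lower), 13.9% with metformin and 4.17% with resveratrol. These shares are the background for this list and every list below. Cybb, the catalytic subunit of the phagocyte NADPH oxidase, stood at 38.1, 30.1, 56.7 and 42.1 CPM on the normal diet and at 128, 144, 146 and 49.7 on HFD (1.48, SE 0.30, adjusted p = 0.00481). HFD unmatched again lay within the normal diet range. Its partner Cyba (1.54), the regulatory subunit Ncf4 (1.45), inducible nitric oxide synthase Nos2 (1.22) and Duox1 (1.80) also rose, and Ncf1 and Rac2 were among the others. The count was 6 to 8 when any 1 library was left out and 1 when resveratrol 4 was kept.

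With metformin 7 of the 11 fell and none rose (median -1.36), and with resveratrol 4 fell and none rose (median -1.19). Over all genes 7.84% fell with metformin and 3.09% with resveratrol. Cybb was at 39.5, 29.5, 37.8 and 54.3 CPM with metformin (-1.54, SE 0.30, adjusted p = 0.0123) and at 38, 39.2 and 34 with resveratrol (-1.66, SE 0.34, adjusted p = 0.036). The resveratrol falls included Cybb, Cyba (-1.74) and Rac2 (-1.24). Phagocyte oxidase subunits are themselves expressed by macrophages, whose markers moved as given above. The part of these cells in the oxidase values was not tested. Leaving out 1 library gave 3 (without HFD 3) to 8 falls with metformin. With resveratrol 0 were left without any 1 of HFD 1, 2 and 3 or of resveratrol 1, 2 and 3, and 6 fell without HFD unmatched. Metformin had 0 falls, and resveratrol 4, with the ciliated epithelium score in the fit; with resveratrol 4 kept, the counts were 0 and 3.

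**Figure D5:**
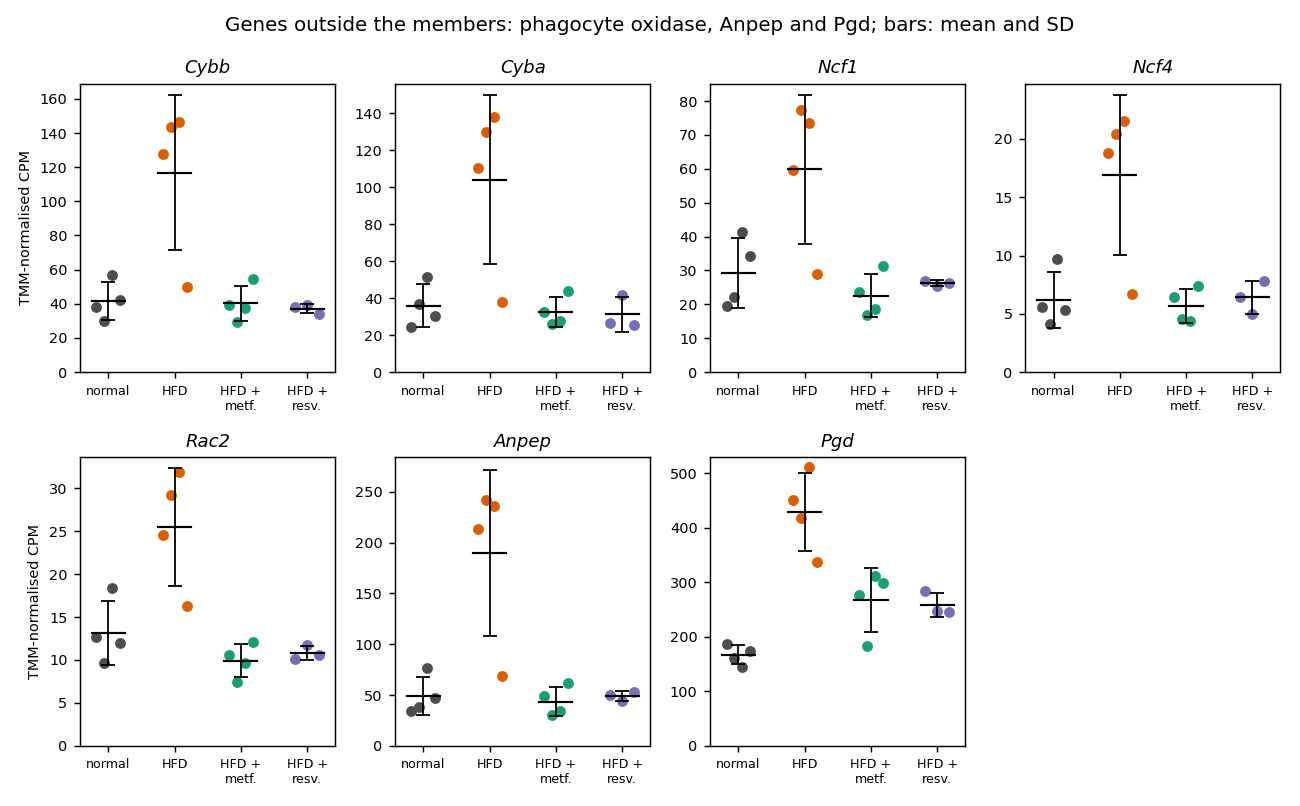
TMM-normalised CPM (vertical axis) per library in the 4 groups (horizontal axis), with the mean and SD, for 5 phagocyte oxidase genes, Anpep and Pgd. HFD 1 to 3 stand above all other libraries in every panel, and HFD unmatched, at 49.7 CPM for Cybb and 68.8 for Anpep, lies near the other groups in every panel but Pgd.

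NADPH supply, which feeds both glutathione and thioredoxin reduction, was read from 16 genes. Of these, 5 rose and 1 fell on the HFD, beside 23.1% of all genes. Pgd, the second NADPH-producing enzyme of the pentose phosphate pathway, stood at 187, 162, 146 and 174 CPM on the normal diet and at 451, 418, 511 and 338 on HFD (1.36, SE 0.17, adjusted p = 4.17e-04). Cytosolic isocitrate dehydrogenase Idh1 (1.31), G6pdx, the entry enzyme of that pathway (1.07), malic enzyme Me1 (0.96) and Me2 (0.27) rose, and transketolase Tkt fell (-0.86). With metformin Pgd (-0.68), Idh1 (-0.66) and Pgls (-0.41) fell. With resveratrol Pgd alone of the 16 fell (-0.73, SE 0.18, adjusted p = 0.0418). Pgd was at 278, 183, 312 and 298 CPM with metformin and at 284, 247 and 246 with resveratrol, between the HFD and normal diet means.

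Other known NRF2 targets did not move as a block. Of 29 such genes, all tested, 9 rose and 2 fell on the HFD, beside 23.1% of all genes, with a median of 0.12. The rises with the largest change were Ptgr1, a leukotriene and alkenal reductase (1.67), Akr1b8 (1.14), the epoxide hydrolase Ephx1 (1.02) and Akr1b10 (0.94), and Aldh1a1 (-0.84) and Nmrk1 (-0.47) fell. With metformin Abcc2 (2.36) and Nmrk1 (0.43) rose and Akr1b3 (-0.53), Fth1 (-0.50), Akr1a1 (-0.48) and Lpcat3 (-0.32) fell. Abcc2 was at 4.81, 4.93, 25.1 and 5.25 CPM with metformin, so metformin 4 stood apart. It lay at 0.888 to 3.86 CPM on HFD and at 1.15 to 7.55 on the normal diet. With resveratrol Ugt1a6a (0.85) rose and Ephx1 (-0.66) and Akr1b3 (-0.63) fell. Ephx1 stood at 62.6 to 96.6 CPM on the normal diet, 139 to 157 on HFD, 104 to 124 with metformin and 82.7 to 113 with resveratrol. Against the normal diet 2 of these genes changed with metformin, Ephx1 higher (0.63, adjusted p = 0.039) and Slc3a2 lower (-0.48, adjusted p = 0.0315).

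Among 13 partners and inhibitors of NRF2, Rbx1 (0.33) and Dpp3 (0.75) rose and the small MAF protein gene Mafg (-0.47) fell on the HFD. This is close to the 23.1% of all genes that changed. Bach1, a repressor that competes for the response element, stood at 109, 83, 129 and 101 CPM on the normal diet and at 113, 126, 122 and 99.8 on HFD. With metformin it was at 65.3, 65.8, 61.9 and 62.3 CPM, below every library of both these groups, and fell against HFD (-0.85, SE 0.11, adjusted p = 0.0118) and against the normal diet (-0.72, SE 0.11, adjusted p = 0.0104). Dpp3 also fell with metformin (-0.34), and 0 of the 13 changed with resveratrol.

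Of 27 other glutathione genes tested, 3 rose and 1 fell on the HFD, a smaller share than the 23.1% of all genes. The largest rise was in Anpep, a cell surface peptidase that cleaves the dipeptide left by glutathione breakdown, at 49 ± 18.9 CPM on the normal diet and 190 ± 81.8 on HFD (SD, n = 4; 1.96, SE 0.38, adjusted p = 0.00361). It fell with metformin to 43.6 ± 14.5 (-2.13, SE 0.38, adjusted p = 0.012) and with resveratrol to 48.9 ± 4.67 CPM (n = 3; -1.96, SE 0.42, adjusted p = 0.0365). Esd (0.47) and the mitochondrial glutathione carrier Slc25a39 (0.43) rose and Glrx3 (-0.40) fell on the HFD. Of 14 further thioredoxin and methionine sulfoxide genes, Msrb2 (0.56) and Prdx4 (0.54) rose on the HFD. The stress protein Sesn2 (-0.93) and the thioredoxin inhibitor Txnip (-0.82) fell, beside 23.1% of all genes changed. With either drug 0 of the 14 changed.

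Of 11 genes of selenoprotein synthesis and transport, on which Gpx3 and Gpx4 depend, 1 changed. This is a smaller share than the 23.1% of all genes changed on the HFD. Sephs2, which makes the selenium donor, stood at 151, 118, 108 and 100 CPM on the normal diet and at 56.9, 52.9, 50 and 67.8 on HFD (-1.07, SE 0.18, adjusted p = 0.00175). It was at 87.6, 129, 107 and 80.8 CPM with metformin and rose against HFD (0.83, SE 0.18, adjusted p = 0.0158). With resveratrol it was at 75.1, 79.3 and 109 CPM and none of the 11 passed.

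Of 13 genes of heme, iron and metal handling, 4 rose and 2 fell on the HFD, beside 23.1% of all genes. Biliverdin reductase Blvra (1.37), the enzyme after Hmox1, the heme transporter Slc48a1 (1.51), haptoglobin Hp (1.63) and the transferrin receptor Tfrc (0.44) rose, and transferrin Trf (-0.84) and Cp fell. Cp, the copper ferroxidase ceruloplasmin, stood at 412, 419, 342 and 337 CPM on the normal diet and at 96.2, 94.8, 105 and 116 on HFD (-1.88, SE 0.14, adjusted p = 2.68e-05). It was at 167, 244, 212 and 227 CPM with metformin and 174, 246 and 182 with resveratrol and rose against HFD with both (1.05, adjusted p = 0.0118, and 0.96, adjusted p = 0.0348). Cp stayed below the normal diet in both drug groups (-0.83, adjusted p = 0.016, and -0.91, adjusted p = 0.0432). Blvra and Slc48a1 fell with metformin (-0.76 and -1.19) and with resveratrol (-1.02 and -1.12). Hp fell (-1.58) and Hpx (2.93) and Tfrc (0.50) rose with metformin. Hpx was at 15.7, 14.4, 77.6 and 17.8 CPM with metformin, again with metformin 4 apart. It lay at 2.67 to 5.79 CPM on HFD and at 2.77 to 20 on the normal diet.

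The counts of these other lists depended on single libraries as those of the members did. Without any 1 of HFD 1, 2 and 3, no NADPH gene and no other NRF2 target was called with either drug. Without HFD 1, the NADPH genes called on the HFD were 3 in place of 6, and the NRF2 targets 7 in place of 11. Without HFD unmatched, 9 NADPH genes were called on the HFD and 5 with metformin, and 12 and 10 of the NRF2 targets. The Sephs2 call on the HFD held without any 1 library, and its metformin call was lost without any 1 of HFD 1, 2 and 3. Heme and iron genes called were 5 to 8 on the HFD, 3 to 6 with metformin and 0 to 4 with resveratrol, and the other glutathione genes 2 to 5, 1 to 5 and 0 to 2. With the ciliated epithelium score in the fit, metformin left 0 calls among the other glutathione genes, NRF2 targets, NADPH genes, NRF2 partners and selenoprotein genes, so those of Anpep, Pgd, Bach1 and Sephs2 were lost, and 1 heme or iron gene, Cp, in place of 6. With resveratrol 4 kept, metformin left Anpep, Bach1, Cp and Slc48a1 in these lists. On the HFD that fit left 5 NRF2 targets, 3 heme or iron genes, 2 NADPH genes, 2 NRF2 partners, 1 other glutathione gene (Anpep) and Sephs2.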

How the data were processed

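RNA of epididymal fat was sequenced in 16 libraries, 4 per group. Per the file headers, the deposited mRNA table held raw read counts per transcript for each library, with the authors' FPKM values beside them. Tools listed in the submitters' processing notes are fastp and HISAT2, and the build is GRCm38. How reads were counted, with which annotation and strand setting, was not stated, and reads shared by overlapping or near-identical genes cannot be told apart. The header had 43 names for 44 cells per line, and 5 broken records were rejoined. Of the count columns, 14 matched a sample title, and 2 were placed by their code prefix. The FPKM values of the authors were used only to check columns: the library total they imply differed from the summed counts by at most 0.0418% for 14 libraries, against 0.492% or more with another library's column. A further 20 columns of per-sample values were not used.

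Counts of 91879 transcripts were summed to 27150 genes. With resveratrol 4 left out, 15 libraries were fitted with edgeR 4.0.16 in R 4.3.3 (default filter on low counts, TMM, robust quasi-likelihood F test, group as the factor, two-sided). P-values were adjusted by Benjamini-Hochberg over the 17535 genes tested, with 0.05 as the threshold, and "rose", "fell" and "changed" refer to it. Levels are TMM-normalised CPM, and marker sums are CPM summed over a list. The fit was tested on simulated data. DESeq2 1.42.0 and the other alternatives are given in the closing section. Each title holds a separate code but no statement on animals, so the p-values refer to the spread among libraries, which may be technical.

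The members and all gene lists were chosen with earlier results of these data known. Every member is named. Values in every library go to up to 10 members past the threshold per comparison, the largest changes first, and to Nfe2l2, Keap1, Nqo1, Hmox1, Gclc, Gpx3, Gpx4, Cat and Sod1 to Sod3. Of each other list up to 6 changed genes per comparison are named; 1 gene is not reported here by name, and it stays in its list's counts and median. Cell type lists also covered mesothelial cells (128 to 701 CPM in the 15 libraries), fibroblasts (3548 to 8518), endothelial cells (1522 to 2725), lymphocytes (8.36 to 27.3) and epididymis principal cells with seminal vesicle (0.47 to 1075, the highest from seminal vesicle genes).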

Additional observations from a re-analysis of the deposited data

Results flagged for a closer look

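In groups of 4 libraries, a library was marked where its gap to the nearest other as a share of the group's range exceeded Dixon's critical value. This happened 10 times in 120 groups tested, and chance gives about 1 in 20. In HFD unmatched these were Gsr at 56 CPM (others 27.5 to 32), Gsta3 at 54.9 (13.1 to 15.5), Gsta4 at 10.9 (2.51 to 3.66) and Gstt1 at 39.8 (24.1 to 26). On the normal diet they were Gpx3 at 445 CPM (415 to 419) and Gstm5 at 140 (18.6 to 28.7) in library 2, and Sod2 at 114 (75.3 to 76.9) and Cat at 1152 (682 to 712) in library 1. With metformin they were Gsto1 at 29.4 CPM in library 2 (57.4 to 59.3) and Nqo1 at 7.50 in library 4 (6.11 to 6.23).

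Resveratrol 4, which entered no comparison, held 9 members at more than 2 times the highest of the other 15 libraries, with all 16 scaled together. Gpx3 stood at 2550 CPM there (highest other 457), Gstm2 at 589 (133), Srxn1 at 344 (66.3) and Gclm at 237 (65.4). Gstp1 stood at 234 (100), Nqo1 at 139 (9.89), Gstt3 at 92.6 (24.2), Gsta2 at 3.90 (1.78) and Gpx2 at 0.821 (0.320). In the same library the markers of epididymis principal cells and seminal vesicle summed to 24074 CPM, against at most 1075 in the others, and fat cell markers to 1816. The part of epididymal cells in these values was not tested.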

How the results depend on the processing

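Counts below are genes past the threshold, members first and all genes second, in the order HFD against normal diet, metformin against HFD, resveratrol against HFD, metformin against normal diet, resveratrol against normal diet and metformin against resveratrol. As reported they were 19 and 4050, 14 and 2442, 6 and 732, 0 and 299, 0 and 26, and 0 and 2. With all 16 libraries they were 5 and 1531, 0 and 179, 3 and 395, 0 and 1, 0 and 0, and 0 and 0. With a ciliated epithelium score in the fit they were 21 and 4886, 0 and 16, 9 and 1343, 1 and 442, 1 and 181, and 0 and 4. Without the 5 libraries rich in that epithelium, which leaves metformin 1 assumed to vary like the other groups, they were 21 and 4285, 0 and 18, 0 and 17, 0 and 33, 0 and 41, and 0 and 3. With only the 2 groups compared they were 17 and 4577, 9 and 1142, 0 and 1, 0 and 28, 0 and 0, and 0 and 0. DESeq2 gave 20 and 5447, 17 and 4388, 9 and 2141, 1 and 1131, 1 and 417, and 0 and 40. Without the filter on low counts they were 18 and 3482, 11 and 1541, 3 and 351, 0 and 203, 0 and 15, and 0 and 0. Without the unmatched columns they were 19 and 4410, 14 and 2639, 11 and 1855, 0 and 131, 0 and 8, and 0 and 2. DESeq2-style size factors in edgeR and the fit without the robust option kept every count within 1.5 times of that reported. Leaving out each of the 15 libraries in turn gave 15 to 20 members and 2722 to 4979 genes, 3 to 15 and 469 to 3710, 0 to 11 and 1 to 2066, 0 to 1 and 91 to 423, 0 to 1 and 6 to 120, and 0 and 0 to 3. No member called in the first 3 comparisons changed direction under any of these alternatives, and the causes of the lost calls were not tested.

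No paired analysis was possible because replicate numbers follow accession order only, and the codes in the titles are not said to pair libraries across groups. The design has 3 or 4 libraries per group, 2 columns placed by prefix, and RNA of other tissues that differs between libraries of a group, so values short of the threshold do not show equal levels. Members under 1 CPM (Gpx2, Gsta2 in most libraries) could not be compared at this depth.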
